A study of Rattus norvegicus with 6 samples.

Results

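The heat shock proteins of the cytosol and the mitochondrion were represented by 10 genes chosen by name, which are Hsf1, Hsp90aa1, Hsp90ab1, Hspa8, Hspa4, Hsph1, Dnajb1, Hspb1, Hspd1 and Hspe1. Each had a single row in the deposited table of 18930 rows, which hold 18620 gene symbols, and all 10 were among the 11870 genes with enough reads to be tested. RNA came from NRK-52E, an established line of rat kidney epithelial cells labelled WT. The 3 Control samples received vehicle and the 3 STZ samples received 10 mM of streptozotocin (STZ), a nitrosourea that alkylates DNA, for 24 h. Nothing states whether the samples were separate cultures, so the p-values measure the spread between these samples, which may be technical. RNA was taken from whole cultures, in which fewer cells of a type and less RNA per cell cannot be told apart.

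Heat shock proteins are molecular chaperones, which hold, fold or refold other proteins. The transcription factor HSF1 is held inactive by chaperones and is released when unfolded proteins accumulate, after which it binds heat shock elements in the promoters of chaperone genes and raises their transcription. The inducible genes, such as Hspb1, Dnajb1, Hsph1 and Hsp90aa1, are known for large rises after heat or proteotoxic stress, whereas Hspa8 and Hsp90ab1 encode the abundant constitutive chaperones of unstressed cells.

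STZ-treated cells did not raise these genes as a block. Of the 10 genes, Hspb1, Hsp90aa1 and Hsf1 were higher, while Hspd1, Hsp90ab1, Hspe1, Hspa8 and Hsph1 were lower, and Hspa4 and Dnajb1 did not pass the test. A gene was called when its Benjamini-Hochberg adjusted p in edgeR, taken over the whole table, was under 0.05. By that rule 3 of 10 were higher and 5 of 10 lower, where 25.9% of all genes tested were higher and 25.1% lower, so the number higher was near that of genes at large. The changes were small except in Hspb1. None of the 10 also passed the study's second threshold, a log2 fold change beyond 1 in either direction. Of the 11870 genes tested, 400 passed both thresholds, 268 upward (2.26%) and 132 downward. The median log2 fold change of the 10 genes was -0.04, against -0.0055 over all genes tested. The same 8 genes had samples that did not overlap between the groups, 3 with STZ higher and 5 with STZ lower, and over all genes tested 28.6% and 27.7% did so. Together the 10 genes took between 0.460% and 0.501% of the reads of a Control library and between 0.446% and 0.473% of those of an STZ library, ranges that overlap.

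**Figure D1:**
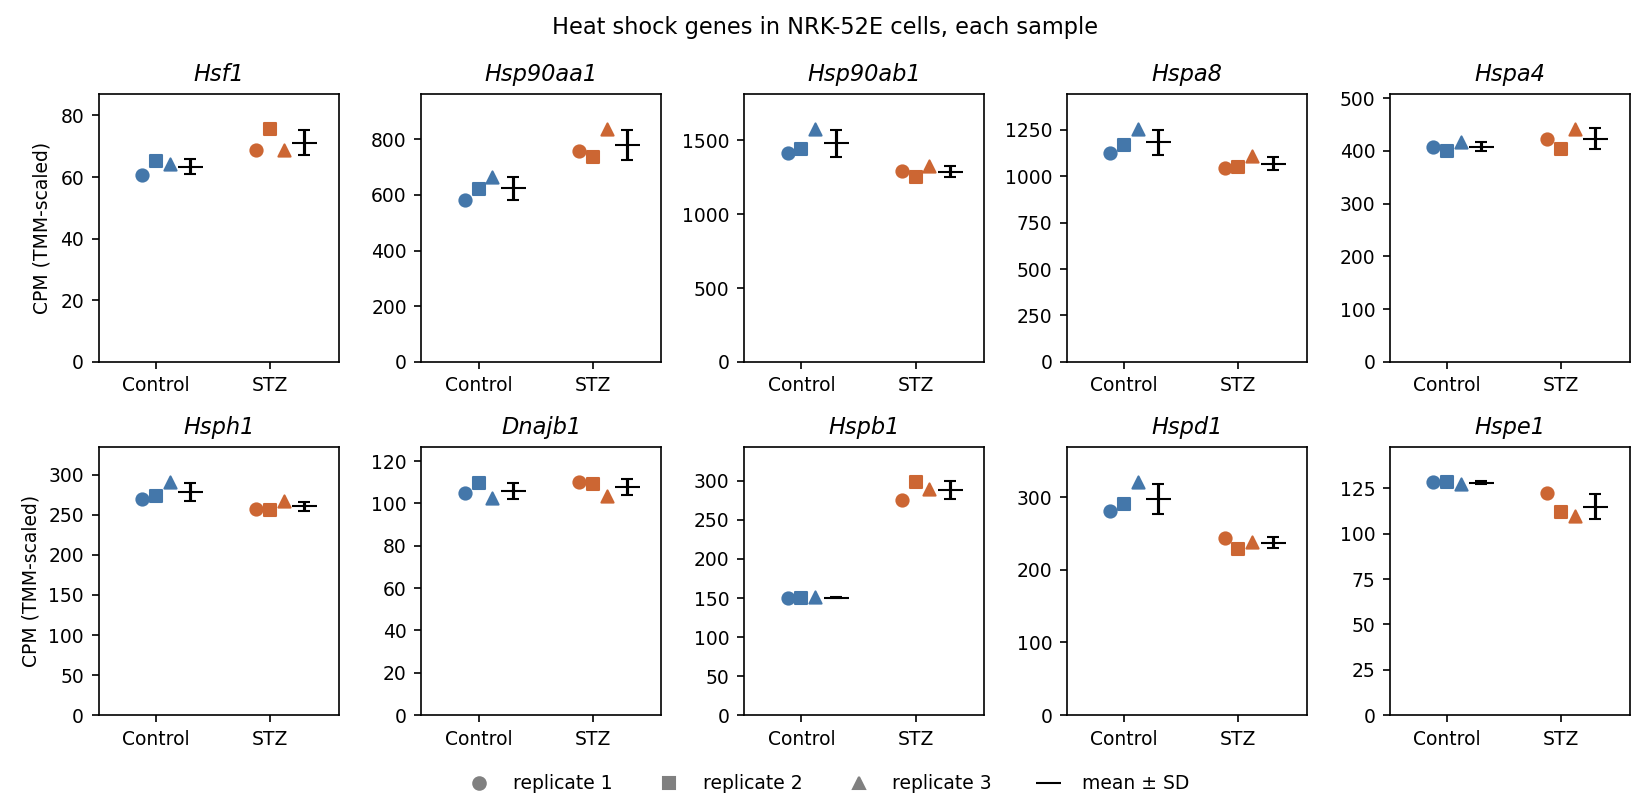
Each panel plots the level of 1 gene in counts per 1000000 reads (CPM, scaled by TMM) in the 3 Control and the 3 STZ samples, with the marker shape giving the replicate number and the bar the mean ± SD. Hspb1 rises from about 151 to 288 CPM with no overlap, whereas the points of Hspa4 and Dnajb1 overlap between the groups.

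The libraries held between 10430924 and 15191349 counted reads. TMM scaling factors lay between 1.008 and 1.018 in Control and between 0.988 and 0.989 in STZ, so they did not overlap between the groups. Replicates were close, and edgeR put the common coefficient of variation between them at 3.25%. Among kidney epithelial markers Krt8 and Tjp1 had 1149 and 612 CPM in Control, Cdh1 and Krt7 had 2.58 and 1.36 CPM, and Krt18, Pax8, Cdh2 and Cdh6 had at most 6 reads in a sample. Only uniquely mapped reads were counted, so a low count, as that of Krt18, does not show that the gene was silent. No sample had more than 10 reads of any of the proximal tubule genes Slc5a2, Slc34a1, Lrp2, Cubn and Slc2a2. The summed level of the 8 epithelial markers in the table was 1708 to 1794 CPM in Control and 2287 to 2293 in STZ, that of 7 proximal tubule markers 57.8 to 60.4 and 74.9 to 87.1, and that of 7 fibroblast markers 154 to 160.0 and 100.2 to 114. Endothelial markers summed to 2.64 to 4.15 CPM in Control and 1.65 to 2.40 in STZ, and leukocyte markers, whose groups overlapped, to at most 2.17 and 2.40. The proximal tubule sum was mostly Ggt1, called higher at 45.1 CPM in Control and 75.1 in STZ, while Aqp1 was called lower at 13.1 and 5.43 CPM. Cdh1 was also called lower, against the epithelial sum. All of these sums but that of leukocyte markers did not overlap between the groups, and their part in the results was not tested.

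Because only uniquely mapped reads were counted, genes with near-identical copies can lose reads. RefSeq (GRCr8) names 33 pseudogenes of Hspa8, 23 of Hsp90ab1, 20 of Hspd1, 16 of Hsp90aa1 and 1 of Hspe1, and 0 by that naming of the other 5 genes. Eef1a1, a translation factor that all cells use, had at most 1 read in any sample. The levels of the first 5 genes are therefore uncertain.

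RefSeq promoter windows on GRCr8, from 250 bases before to 50 after a gene's start, were available for 8 of the 10 genes, and Hsf1 and Hsp90aa1 had none. A heat shock element is built of GAA units in alternating orientation. It was searched as GAANNTTC or TTCNNGAA (2 units), as GAANNTTCNNGAA or TTCNNGAANNTTC (3 units) and as 4 units in the same spacing. Each pattern was read on both strands, and a longer match contains the shorter ones. At least 2 units were found in 6 of the 8 windows, against 15.9% of 33469 windows of the same length in the table. A run of 3 units was found in the windows of Hspa8, Hsph1, Hspd1 and Hspe1, against 0.798% of all windows. Only 16 of all windows, 0.0478%, held 4 units, and those of Hspd1 and Hspe1 are 2 of them. Both windows contain the same bases, because these genes lie head to head and their windows share 211 bases. The windows of Hsp90ab1 and Hspa4 held no match, which says only that these letters are not in the windows searched.

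The matches before the start are printed with up to 15 bases on each side, so that they can be set beside each gene's measured change. They are matches of letters only, and binding of HSF1 was not measured. They run 5′ to 3′ on the gene's strand, with the letters of the matches in capitals and positions counted from the RefSeq start. A further match of Dnajb1 lies after its start, at 18 to 25.
Hspe1, shared with Hspd1, chr9:64084247-64084294, plus strand, -80 to -33: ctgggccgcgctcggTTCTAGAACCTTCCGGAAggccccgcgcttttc
Hspa8, chr8:50080286-50080328, plus strand, -228 to -186: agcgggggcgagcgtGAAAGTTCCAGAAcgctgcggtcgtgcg
Hspa8, chr8:50080444-50080486, plus strand, -70 to -28: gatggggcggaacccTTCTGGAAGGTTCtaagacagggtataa
Hsph1, chr12:10427248-10427285, plus strand, -120 to -83: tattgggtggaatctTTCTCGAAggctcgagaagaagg
Hsph1, chr12:10427317-10427359, plus strand, -51 to -9: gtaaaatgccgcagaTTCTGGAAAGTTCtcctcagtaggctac
Dnajb1, chr19:41431142-41431167, minus strand, -26 to -1: gcatcgggaggggcgGAAGGTTCtgg
Hspb1, chr12:26432388-26432445, minus strand, -144 to -87: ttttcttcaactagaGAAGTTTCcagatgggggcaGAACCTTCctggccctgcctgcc

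**Figure D2:**
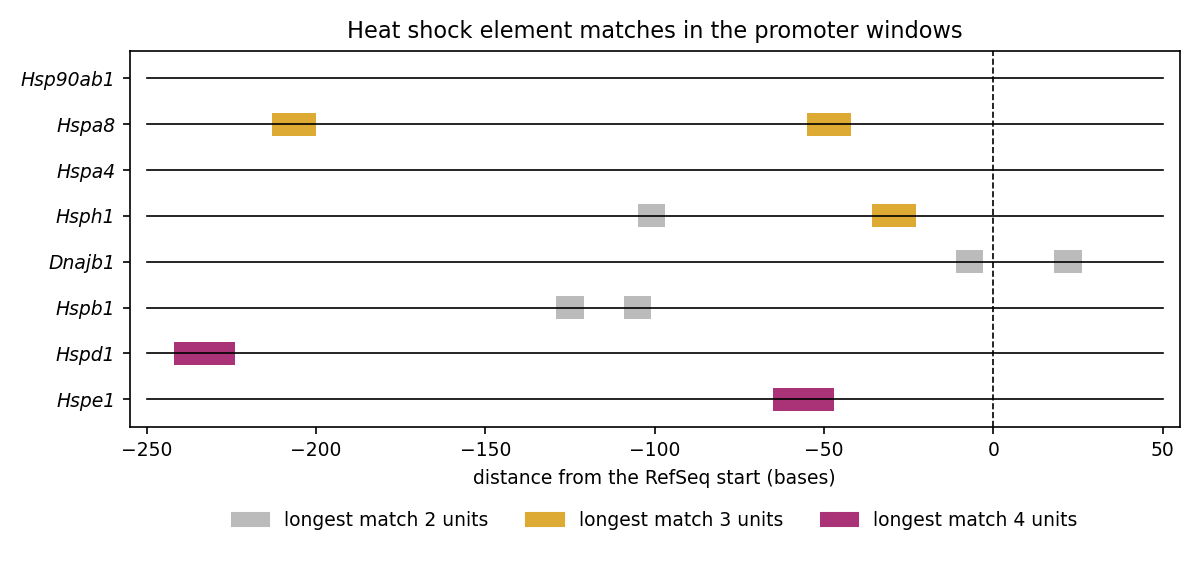
Each line is the promoter window of 1 gene, plotted as distance in bases from the RefSeq start (dashed line), and the boxes are heat shock element matches coloured by the longest run of units. Hspd1 and Hspe1 share the 4-unit match, at -242 to -225 of Hspd1 and -65 to -48 of Hspe1, while Hsp90ab1 and Hspa4 have no box.

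Windows could be read for only 1 of the 3 genes that rose, Hspb1, so elements and direction cannot be compared over the 10 genes. Hspd1 and Hspe1, which share an element, and Hspa8 and Hsph1 had 3 or 4 units in their windows and were lower in STZ-treated cells. Hsp90ab1, with no match, was also lower (log2 fold change -0.20). Hspb1, which rose, had separate matches of 2 units, and so did Dnajb1, which did not pass. Hspa4, with no match, did not pass either. Over the 8134 genes tested that could be matched to a window by symbol, 27.1% were higher and 25.8% lower. Among the 35 with 3 or more units, 11 were higher and 10 lower, 31.4% and 28.6%. The median log2 fold change was -0.03 against -0.0045 for all with a window. The 35 include Hspd1, Hspe1, Hspa8 and Hsph1, which are among the 10 lower, so these shares are not separate from those genes. These shares are a description, and no test was made of them.

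Hsf1, which encodes the heat shock transcription factor itself, was slightly higher. Its level was 60.5, 65.3 and 64.3 CPM in Control and 68.8, 75.8 and 68.9 in STZ, here and throughout in the order of replicates 1 to 3. All STZ samples lay above all Control samples, with STZ replicate 2 the highest. The log2 fold change was 0.16 (standard error 0.05, 95% interval 0.05 to 0.27, adjusted p = 0.0113 from edgeR), a level 11.9% higher. The call was lost without Control replicate 1 (log2 fold change 0.13, adjusted p = 0.0688 from edgeR) and without STZ replicate 2 (0.12, adjusted p = 0.0898 from edgeR). Of 5 other factors and regulators tested, 1 was higher, 1 lower and 3 did not pass. That is 20% and 20% against 25.9% and 25.1% of all genes tested. The number lower was 0 without Control replicate 3, STZ replicate 1 or STZ replicate 2. Hsbp1, whose product binds HSF1 trimers and restrains them, rose by 0.29 (adjusted p = 2.78e-07). Hsf2, the second heat shock factor of most cells, had a log2 fold change of -0.12 that did not pass (adjusted p = 0.0988), and it was named after its values were seen.

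The cytosolic HSP90 genes moved in opposite directions. Hsp90aa1, the inducible form, had 583, 622 and 666 CPM in Control and 759, 737 and 839 in STZ. The lowest STZ sample lay above the highest Control sample, and replicate 3 was the highest in each group. Its log2 fold change was 0.32 (standard error 0.04, 95% interval 0.23 to 0.40, adjusted p = 2.42e-08 from edgeR), a level 24.8% higher. Hsp90ab1, the constitutive form, had 1414, 1444 and 1581 CPM in Control and 1289.7, 1249 and 1325 in STZ. Here every STZ sample lay below every Control sample. Hsp90ab1 fell by 0.20 on the log2 scale (standard error 0.04, 95% interval -0.28 to -0.12, adjusted p = 2.03e-05 from edgeR), to a level 0.871 times that of Control. In RefSeq the span of Hsp90aa1 overlaps the long non-coding RNA LOC102549239, and no source used here says whether strand was used in counting.

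A share of reads within the pair does not depend on how libraries are scaled. Hsp90aa1 took 29.2%, 30.1% and 29.6% of the reads of both genes in Control and 37.0%, 37.1% and 38.8% in STZ. Exact binomial 95% intervals were 28.6% to 30.7% at their widest span over the Control samples and 36.5% to 39.3% over the STZ samples. The intervals of the groups thus did not overlap. The mean share was 29.6% ± 0.442 in Control and 37.6% ± 0.970 in STZ (SD, n = 3), a gain of 7.99 percentage points. The exact two-sided permutation test over samples gave p = 0.1, the smallest p that 3 against 3 allows. The binomial intervals treat reads as independent, and reads without molecular identifiers are not independent molecules, so the intervals may be too narrow. They also leave out the spread between samples. Shares of reads are not shares of molecules, because the genes differ in length and in the copies they share reads with.

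**Figure D3:**
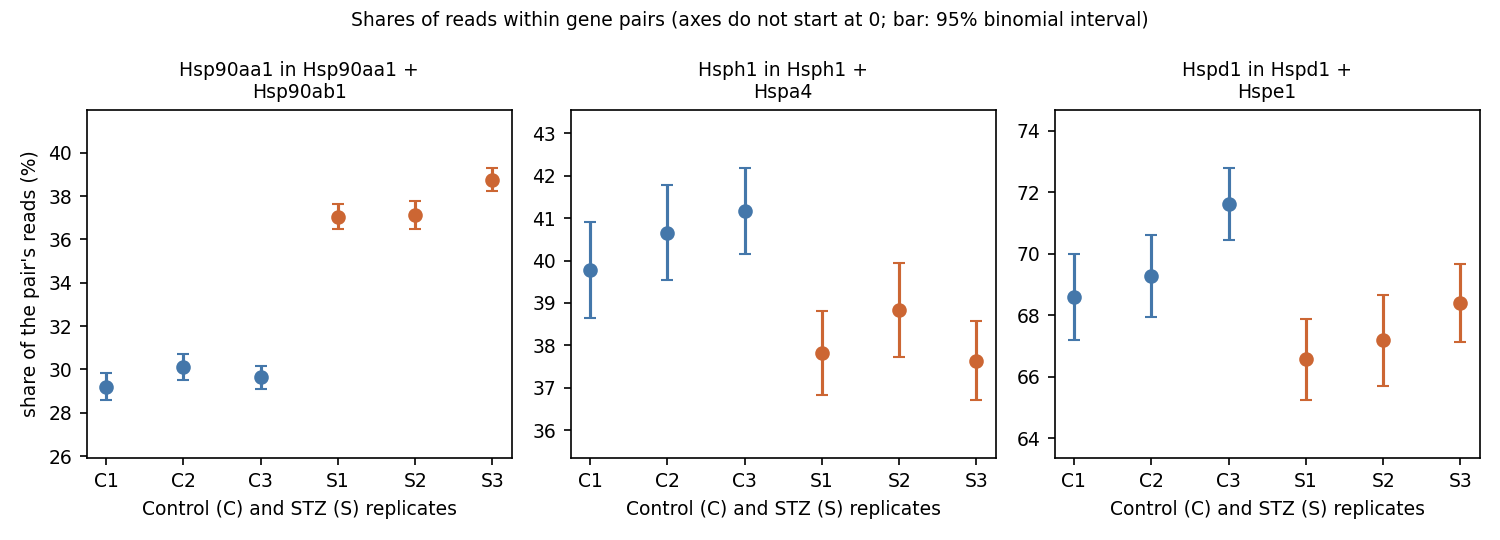
The points give the share (%) of a pair's reads that came from the first gene, for Control replicates (C1 to C3) and STZ replicates (S1 to S3), with exact binomial 95% intervals and axes that do not start at 0. The Hsp90aa1 share moves from 29.2% to 30.1% in Control up to 37.0% to 38.8% in STZ, while that of Hsph1 fell by 2.43 points and that of Hspd1 fell by 2.45 points.

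Of 20 HSP90 co-chaperones tested, 4 were higher, 8 lower and 8 did not pass, 20% and 40% against 25.9% and 25.1% of all genes tested, with a median log2 fold change of -0.09. Ptges3, which encodes the p23 protein that stabilises HSP90 bound to its clients, had the smallest p and fell by 0.34 (adjusted p = 2.02e-08 from edgeR). Several others are named after their values were seen. Ppp5c, a phosphatase that docks on HSP90, fell by 0.32, and the immunophilins Fkbp5 and Fkbp4 fell by 0.35 and 0.26. Cdc37, which brings kinases to HSP90, rose by 0.14, and Chordc1 rose by 0.21. The number higher was 2 without Control replicate 1, and 4 with all samples. For the HSP90 of the endoplasmic reticulum, Hsp90b1, likewise named afterwards, the log2 fold change was -0.0033 (95% interval -0.07 to 0.07), which did not pass.

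The HSP70 members fell or did not pass. Hspa8, the constitutive HSP70 known as HSC70, had 1125, 1169 and 1257 CPM in Control and 1044, 1049 and 1108 in STZ. All STZ samples were lower than all Control samples, and replicate 3 was again the highest in each group. Hspa8 fell by 0.15 on the log2 scale (standard error 0.04, 95% interval -0.23 to -0.07, adjusted p = 9.13e-04 from edgeR). Its window holds 2 separate runs of 3 units, printed above. In RefSeq its span also holds the small nucleolar RNA Snord14a.

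Hspa4 and Hsph1 encode HSP110 proteins, which release ADP from HSP70 and so drive its cycle. Hsph1, the heat-inducible one, had 270, 274 and 291 CPM in Control and 258, 257 and 267 in STZ. The groups were separate, but Control replicate 1 and STZ replicate 3 were 270 and 267. Hsph1 fell by 0.10 on the log2 scale (standard error 0.04, 95% interval -0.17 to -0.02, adjusted p = 0.0398 from edgeR), and this call was fragile. Without Control replicate 3 the log2 fold change was -0.06 (adjusted p = 0.219 from edgeR). It was -0.08 without STZ replicate 1 and without STZ replicate 2 (adjusted p = 0.135 and 0.127 from edgeR), -0.10 with DESeq2 (adjusted p = 0.0597) and -0.09 with each library thinned to the smallest total count (adjusted p = 0.0535 from edgeR).

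Hspa4 had 408, 399 and 416 CPM in Control and 424, 404 and 443 in STZ. The groups overlapped, and the log2 fold change of 0.05 did not pass (95% interval -0.02 to 0.13, adjusted p = 0.236 from edgeR). The share of Hsph1 in the reads of both genes was 39.8%, 40.7% and 41.2% in Control and 37.8%, 38.8% and 37.6% in STZ. That is 40.5% ± 0.702 against 38.1% ± 0.642 (SD, n = 3), without overlap, with p = 0.1 in the exact two-sided permutation test, again the smallest possible. The binomial intervals of Control replicate 1 (38.6% to 40.9%) and STZ replicate 2 (37.7% to 39.9%) overlapped. The mean Hsph1 share thus fell by 2.43 points.

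Among other cytosolic HSP70 and HSP110 genes, 3 could be tested, of which Hspa4l was higher and Hspa2 and Hspa14 lower. Over all genes tested, 25.9% were higher and 25.1% lower. Hspa14, the ribosome-associated HSP70, had the smallest p and fell by 0.36 (adjusted p = 2.07e-06 from edgeR). Hspa2 fell by 0.52 and Hspa4l rose by 0.18 (adjusted p = 0.0018 and 0.0304), both named because the list is so short. The number higher was 0 without Control replicate 2, STZ replicate 2 or STZ replicate 3, and also with upper quartile or total count scaling, with DESeq2 and after thinning. The main stress-inducible HSP70 genes, Hspa1a and Hspa1b, are near-identical copies and were not analysed here. Hspa5, the HSP70 of the endoplasmic reticulum, named after its values were seen, rose by 0.12 (adjusted p = 0.0042), a call lost without Control replicate 1 (adjusted p = 0.0573, edgeR).

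Dnajb1, the J-domain protein HSP40 that delivers clients to HSP70 and is among the most inducible HSF1 targets, did not pass. It had 105, 109.8 and 103 CPM in Control and 110.3, 109.3 and 103 in STZ. The samples of the groups were interleaved. The log2 fold change was 0.02 (95% interval -0.07 to 0.12, adjusted p = 0.684 from edgeR), and with libraries scaled by total count alone it was -0.0088. A rise of over 0.12 lies outside the interval.

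Of 20 other J-domain proteins tested, 8 were higher, 3 lower and 9 did not pass, 40% and 15% against 25.9% and 25.1% of all genes tested, with a median log2 fold change of 0.09. In some alternative runs 6 were higher, among them upper quartile or total count scaling and leaving out Control replicate 1 or STZ replicate 1. The 8 include Dnajc6, named after its values were seen, which had only 5 to 23 reads in a sample (adjusted p = 0.0496 from edgeR). Dnajb2, a J-domain protein with ubiquitin-interacting motifs, had the smallest p and rose by 0.42 (adjusted p = 1.79e-10 from edgeR). Dnajb5 and Dnajb4, close relatives of Dnajb1, and Dnajb6, all named after their values were seen, rose by 0.53, 0.44 and 0.37. RefSeq names 10 pseudogenes of Dnajb6, so its level is uncertain. Dnaja1, an HSP40 of the other main class, rose by 0.22, and Dnajc2 and Dnajc9, nuclear or ribosome-linked co-chaperones, fell by 0.34 and 0.23, all 3 likewise named afterwards. Among 9 nucleotide exchange factors and other HSP70 partners, 2 were higher, 2 lower and 5 did not pass. That is 22.2% and 22.2% against 25.9% and 25.1% of all genes tested. The number lower was 1 without Control replicate 2 or 3 or STZ replicate 1 or 3. Bag3, an HSF1 target that links HSP70 to small heat shock proteins and selective autophagy, rose by 0.40 (adjusted p = 1.10e-10).

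Hspb1 was the member that changed most. It encodes HSP27, called HSP25 in rodents, a small heat shock protein that binds unfolding proteins without ATP and also regulates actin. Its level was 150.4, 150.04 and 151.6 CPM in Control and 275, 299 and 290.0 in STZ. The Control samples were nearly level, and the lowest STZ sample stood far above them. The log2 fold change was 0.93 (standard error 0.04, 95% interval 0.85 to 1.02, adjusted p = 1.30e-22 from edgeR), a 1.91-fold level, which ranked 316 of 11870 genes from the highest. The gap to the next member, Hsp90aa1, was 0.61 on the log2 scale (standard error 0.06). The interval of Hspb1 includes the threshold of 1.

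Of 5 other small heat shock proteins tested, 3 were higher, 0 lower and 2 did not pass, 60% higher against 25.9% of all genes tested, with a median log2 fold change of 0.32. Cryab, the αB-crystallin that assembles with HSP27, had 400 CPM in Control and 676 in STZ on average and rose by 0.76 (adjusted p = 1.30e-21 from edgeR). Hspb8, the partner of Bag3, rose by 0.61, and Hspb2 rose by 0.32. In RefSeq the spans of Cryab and Hspb2 overlap, so reads of these genes may not be fully separated. Hspb6 had a log2 fold change of 0.19 (adjusted p = 0.0508), and Hspb11, which is a part of the ciliary transport machinery rather than a chaperone, one of 0.01 (adjusted p = 0.94). Hspb8, Hspb2, Hspb6 and Hspb11 complete the short list and were named after their values were seen.

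**Figure D4:**
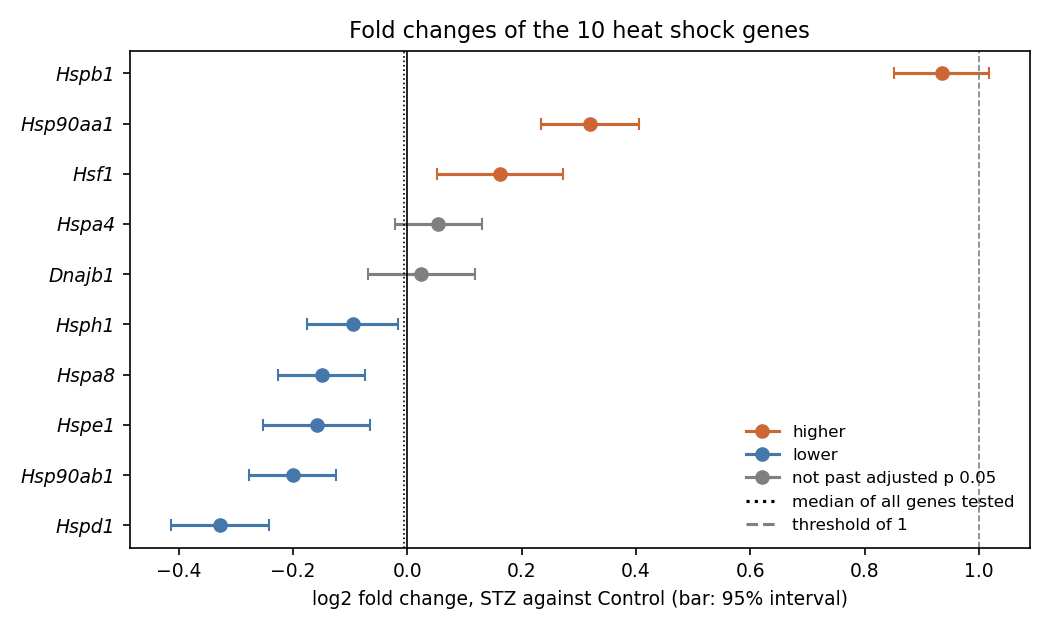
The points give the log2 fold change of each of the 10 genes, STZ against Control, with 95% intervals from edgeR, coloured by call, with the median of all genes tested (dotted) and the threshold of 1 (dashed). Hspb1 stands apart at 0.93, and the other 9 lie between -0.33 and 0.32.

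The mitochondrial chaperonin was lower in both of its parts. Hspd1 encodes HSP60, which forms the folding chamber of the matrix, and Hspe1 encodes HSP10, its lid. Hspd1 had 281, 290.1 and 321 CPM in Control and 244, 229 and 238 in STZ. All STZ samples lay below all Control samples, among which replicate 3 was the highest. Hspd1 fell by 0.33 on the log2 scale (standard error 0.04, 95% interval -0.41 to -0.24, adjusted p = 1.63e-08 from edgeR), to 0.797 of the Control level.

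Hspe1 had 128, 129 and 127 CPM in Control and 123, 112 and 109.8 in STZ. Control samples were tight and STZ replicate 1 was the closest to them. Hspe1 fell by 0.16 (standard error 0.05, 95% interval -0.25 to -0.07, adjusted p = 0.0037 from edgeR). It kept its call in each alternative run, with adjusted p at most 0.0484. The share of Hspd1 in the reads of both genes was 68.6%, 69.3% and 71.6% in Control and 66.6%, 67.2% and 68.4% in STZ. The mean was 69.8% ± 1.58 and 67.4% ± 0.931 (SD, n = 3), so that the share fell by 2.45 points, with p = 0.1 in the exact two-sided permutation test. The closest samples, Control replicate 1 and STZ replicate 3, had binomial intervals of 67.2% to 70.0% and 67.1% to 69.7%, so they could not be told apart by counting error. Without Control replicate 3 the share fell by 1.55 points. In RefSeq the spans of Hspd1 and Hspe1 overlap.

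Of 20 other genes of mitochondrial protein folding and turnover, 5 were higher, 0 lower and 15 did not pass. That is 25% and 0% against 25.9% and 25.1% of all genes tested, so the number higher was near that of genes at large. The median log2 fold change was 0.03. Hspa9, the HSP70 of the matrix (mortalin), had the smallest p and rose by 0.19 (adjusted p = 2.84e-05 from edgeR). Its exchange factor Grpel1, named after its values were seen, rose by 0.18 (adjusted p = 0.0044). Trap1, the mitochondrial HSP90, rose by 0.13 (adjusted p = 0.0114), a call lost without Control replicate 2 (adjusted p = 0.0784, edgeR) and with total counts alone (0.0619, edgeR). The number higher was 3 without Control replicate 2, without STZ replicate 3 or with total counts alone, and 1 gene was lower without Control replicate 3, with upper quartile or total count scaling, and after thinning. The proteases Lonp1, Clpp and Yme1l1 had log2 fold changes of 0.04, -0.12 and 0.02 that did not pass, and were named after these were seen. The cytosolic chaperonin TRiC folds actin and tubulin, and prefoldin is its partner. Of 13 of their genes tested, 2 were higher, 5 lower and 6 did not pass. That is 15.4% and 38.5% against 25.9% and 25.1% of all genes tested, and with total counts alone 8 were lower. Cct2, a TRiC subunit, fell by 0.25 (adjusted p = 4.57e-07), and no TRiC subunit was among those that rose.

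**Figure D5:**
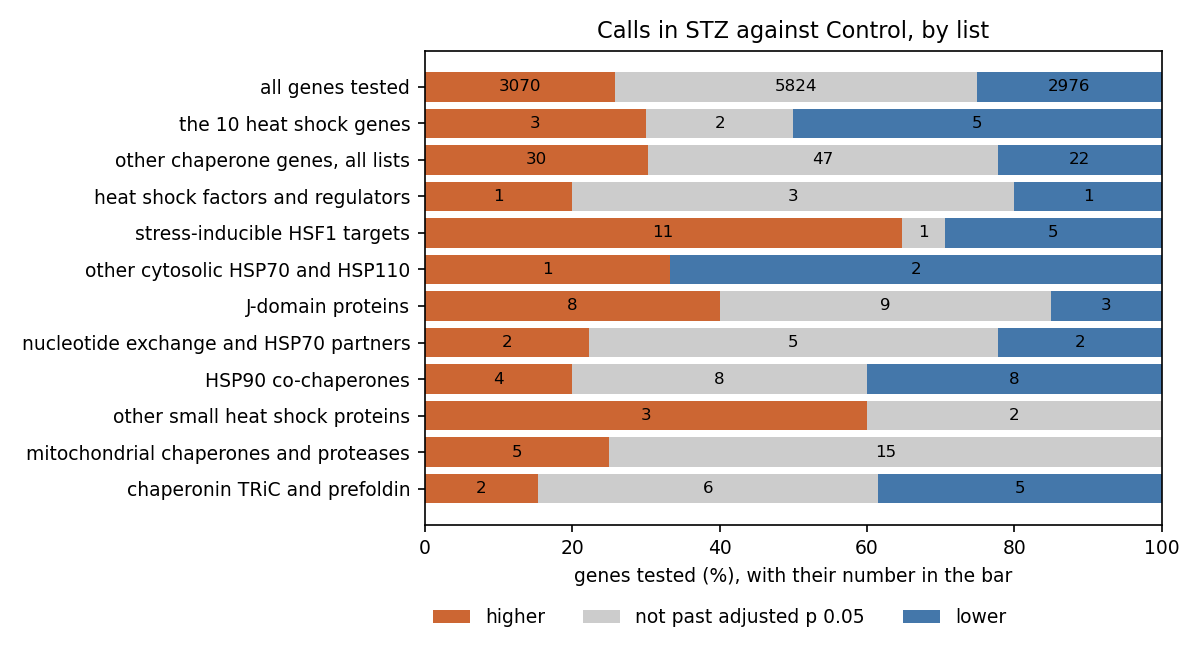
Stacked bars give the share (%) of genes tested that were higher, lower or not past an adjusted p of 0.05 in STZ against Control, with the number of genes in each part, for all genes, the 10 heat shock genes and lists of related genes, some of which share members. HSF1 targets have 11 of 17 higher and 5 lower, and small heat shock proteins 3 of 5 higher and 0 lower. HSP90 co-chaperones have 4 of 20 higher and 8 lower. Over all genes tested 25.9% were higher and 25.1% lower. Cryab and Hspb8 are in both the HSF1 target and the small heat shock protein lists.

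A list of 17 tested genes known as HSF1 targets, none of them among the 10, had 11 higher, 5 lower and 1 that did not pass. That is 64.7% and 29.4% against 25.9% and 25.1% of all genes tested, with a median log2 fold change of 0.16. The inducible genes among the 10 are thus not counted, of which Hspb1 and Hsp90aa1 rose, Hsph1 fell and Dnajb1 did not pass. The list was chosen with earlier results of these data known. Many of its genes, among them Cryab, Hspb8, Bag3, Dnajb4, Cacybp and Fkbp4, are also in the lists above, so its shares are not separate from theirs. The number higher was 9 with upper quartile or total count scaling, with DESeq2, after thinning and without Control replicate 1. The largest rises were in Ier5, an immediate early gene whose product acts on HSF1, which rose by 0.99, and in Cryab, Hspb8, Dnajb4 and Bag3 as given above. Ier5 was named after its values were seen. The 5 lower genes, given because they are so few and, but for Serpinh1, named after their values were seen, were Cacybp, Fkbp4, Tcp1, Ahsa1 and Serpinh1, most of them partners of HSP90 or the TRiC subunit. Serpinh1, the collagen chaperone HSP47 of the endoplasmic reticulum, fell by 0.11 (adjusted p = 0.0054 from edgeR), a call lost without STZ replicate 3 (adjusted p = 0.055). Over all 99 other chaperone genes tested, 30 were higher, 22 lower and 47 did not pass, 30.3% and 22.2%, against 25.9% and 25.1% of all genes tested. The balance turned with scaling, to 26 and 26 with upper quartile and to 23 higher and 30 lower with total counts alone.

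In the order of log2 fold changes from Hspb1 down to Hspd1, most neighbours could not be separated. Hspa8, Hspe1 and Hsp90ab1 lay between -0.15 and -0.20, with gaps of 0.01 and 0.04 against standard errors of 0.06. Hspa4 and Dnajb1 were 0.03 apart, with a standard error of 0.06. The clear step was the one below Hspb1, and the steps from Hsp90aa1 to Hsf1 and from Hsp90ab1 to Hspd1 were each over 2 times their standard error. Control replicate 3 had the highest Control level of 7 of the 10 genes. Without it Hspd1, Hsp90ab1, Hspa8 and Hspe1 still passed, with log2 fold changes of -0.27, -0.15, -0.10 and -0.16.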

How the data were processed

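Per the labels and the methods, the authors made TruSeq stranded mRNA libraries, aligned 100-bp single-end reads with STAR 2.7.10a to Rnor6, a rat assembly, and used featureCounts to count those that mapped uniquely. The deposited table holds raw counts, with 1 column per sample, and its strand setting and annotation are not given in the sources used here. Columns were assigned to groups and replicate numbers by their titles.

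From all 18930 rows, genes were filtered with filterByExpr, scaled by TMM and compared by the quasi-likelihood test of edgeR 4.0.16 (R 4.3.3), without a block, with Benjamini-Hochberg adjustment over 11870 genes. CPM values use the same scaling, and a standard error is the size of the log2 fold change over the root of its F statistic. The steps were tested on simulated counts. Promoter windows and overlaps came from RefSeq (GRCr8), in which all 10 genes were found, and that build differs from the authors'.

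The 10 genes and the lists of related genes were chosen with earlier results of these data known. Beyond the 10, genes named are those with the smallest p in each list and Hspa1a, Hspa1b, Bag3, Hspa9, Trap1, Serpinh1 and Cryab. Others are marked. No set test was made. Alternatives were 3 scalings, 3 filters, DESeq2 1.42.0, limma-voom (limma 3.58.1), a replicate block, thinning each library to 10430924 reads, and each of the 6 samples left out. Total counts of 10430924 to 15191349 set the precision.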

Additional observations from a re-analysis of the deposited data

How the results depend on the processing

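Under each alternative run, the counts of heat shock genes higher and lower and those over 99 other chaperone genes stayed within 1.5 times of the reported ones. The median of the 10 genes kept its direction. The 3 pair shares were computed again only with a sample left out, and their changes kept direction in each case. With a sample left out, 2 to 3 of the 10 genes were higher and 4 to 5 lower, and the median was -0.05 to -0.03. Under the other alternatives it was -0.07 to -0.02, lowest with library size only. Of 160 refits of the 10 genes, 152 kept direction and side of the threshold, 7 lost the call (2 for Hsf1, 5 for Hsph1) and 1 reversed, Dnajb1 with library size only (-0.0088). Of 192 refits of 12 other named genes, 184 were unchanged, 4 lost the call and 4 reversed, all for Hsp90b1, which was 0.0029 after thinning to the smallest total and -0.0245 to 0.0163 with a sample left out. Of 288 counts over single lists, 26 moved by more than 1.5 times. No scaling moved the median of all genes by over 0.1, the lowest being -0.04 with library size only, where 2664 genes were higher and 3485 lower against 3070 and 2976 as reported. The causes were not tested.

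Control and STZ samples share replicate numbers. Deviations of same-numbered samples from their group means correlated at 0.0319, -0.0389 and 0.102 across 10341 genes, which does not pair them. A fit with the replicate block put 3 of the 10 genes higher and 5 lower, with a median of -0.03, and 31 and 23 of the other chaperone genes were higher and lower.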
